A study of Mus musculus with 16 samples.

Results

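The mitosis genes described here were 46 genes of chromosome condensation, spindle assembly, the spindle checkpoint and cytokinesis, out of 19938 genes measured on 16 one-colour Affymetrix arrays. They were listed by name for their known functions, at a time when earlier results of these data were known. Each was read from the probe set annotated to it alone, or from the brighter one for Top2a, the single member with more than 1 such probe set. All 46 were found, and they fell into 10 roles of 3 to 8 genes. The arrays measured total RNA from mice aged 2.5 months on a mixed background of C57BL/6 and CD1. The tissue was either the subependymal zone (SEZ), the layer beside the lateral ventricle that makes new neurons in the adult, or the olfactory bulb (OB), from which the core region was taken and in which the new neurons settle.

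Every mouse carried GlastCreERT2, a tamoxifen-dependent Cre recombinase expressed from the Glast (Slc1a3) gene of astrocytes and adult neural stem cells. The conditional knockout group (cKO) was GlastCreERT2/Brg1fl/fl, with 3 arrays from SEZ and 3 from OB. The control group was GlastCreERT2/Brg1fl/+, with 5 arrays from each tissue, except that SEZ control replicate 5 was labelled GlastCreERT2/Brg1+/+, without a floxed copy. Brg1, encoded by Smarca4, is the ATPase of a chromatin remodelling complex. The labels give neither a tamoxifen dose nor a time of recombination. Cre activity was limited to cells that express Glast and to their progeny, so the dissected tissue also held cells that kept Brg1. The arrays are labelled as biological replicates. All values below are log2 expression values from RMA (background correction, quantile normalisation and summary of probes), so a difference of 1 is a factor of 2 in signal. Each level is given in the order of the replicate numbers, and a level of 1 gene is not set against that of another gene, since probe brightness differs.

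As background, mitosis genes are transcribed mainly from late S phase through G2 and M phase, and are kept low in cells that have left the cycle. Many of their promoters carry a cell cycle genes homology region (CHR), which is bound by the MuvB complexes with B-Myb or p130, and CCAAT boxes, which are bound by NF-Y. In the adult SEZ, slowly dividing stem cells give rise to transit amplifying progenitors that divide fast. These become neuroblasts, which can still divide while they migrate to the OB, where they stop dividing and mature.

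Promoters are shown for 4 members whose levels are described below, since they carry the elements just named and since nearly all members lay on the same side of 0 in one tissue. RefSeq promoter windows on GRCm38.p6, from 250 bases before to 50 bases after the annotated start, were at hand for 39 of the 46 members. Each line gives the 250 bases before the start, 5′ to 3′ on the gene's strand, in lower case with the elements in capitals. A CCAAT box is CCAAT on either strand, and a CHR is TTTGAA on either strand or else its palindromic variant TTCGAA. Kif11 lies on the plus strand at chr19:37376132-37376381, and Top2a on the minus strand at chr11:99024190-99024439. Mki67 lies on the minus strand at chr7:135716380-135716629, and Cdk1 on the minus strand at chr10:69352913-69353162.
Kif11: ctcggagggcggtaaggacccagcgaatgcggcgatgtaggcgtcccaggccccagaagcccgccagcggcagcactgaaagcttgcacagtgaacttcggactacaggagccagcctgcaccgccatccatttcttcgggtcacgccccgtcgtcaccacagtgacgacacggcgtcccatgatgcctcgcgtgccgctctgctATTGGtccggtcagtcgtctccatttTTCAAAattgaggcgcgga
Top2a: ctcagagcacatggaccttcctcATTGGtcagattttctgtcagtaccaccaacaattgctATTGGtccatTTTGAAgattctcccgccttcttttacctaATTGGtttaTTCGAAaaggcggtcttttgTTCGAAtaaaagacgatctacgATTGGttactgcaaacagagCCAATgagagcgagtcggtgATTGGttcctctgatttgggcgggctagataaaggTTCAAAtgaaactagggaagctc
Mki67: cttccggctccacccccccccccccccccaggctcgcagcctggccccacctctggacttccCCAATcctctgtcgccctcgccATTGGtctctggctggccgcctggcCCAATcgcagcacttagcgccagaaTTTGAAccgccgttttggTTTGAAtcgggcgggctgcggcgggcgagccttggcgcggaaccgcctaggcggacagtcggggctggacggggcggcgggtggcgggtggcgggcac
Cdk1: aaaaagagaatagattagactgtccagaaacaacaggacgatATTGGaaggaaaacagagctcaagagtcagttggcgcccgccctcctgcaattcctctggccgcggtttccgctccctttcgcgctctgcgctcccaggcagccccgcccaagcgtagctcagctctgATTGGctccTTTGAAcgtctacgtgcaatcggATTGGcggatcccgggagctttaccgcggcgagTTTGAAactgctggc

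In Kif11, the CHR began 19 bases before the start and a CCAAT box 45 bases before it. Top2a held 6 CCAAT boxes and 4 CHR elements, the nearest CHR beginning 23 bases before the start. Cdk1 held a CHR 15 bases before the start and another 71 bases before it. In Mki67, both CHR elements lay further away, 98 and 116 bases before the start. Both elements were searched on both strands, and their letters can share bases at their ends. The CHR was found in 31 of 39 member windows (79.5%) and in 21.7% of the windows of 27025 genes. A CCAAT box was in 28 of 39 member windows (71.8%) and in 41.1% of all genes' windows. Both were in 26 member windows (66.7%) and in 8.61% of all. Within 50 bases of the start, a distance chosen after the positions were seen, 28 of 39 members (71.8%) held a CHR, against 6.12% of all genes. The windows of 8 members held no CHR letters, namely Nusap1, Sgo2a, Nuf2, Cenpe, Mad2l1, Kif18a, Birc5 and Melk. Their cKO minus control differences in SEZ ran from -0.49 to 0.022. The 28 members with a CHR near the start had a median cKO minus control difference in SEZ of -0.18, and the 11 without one had -0.16. Letter matches of this kind are descriptions and not measured binding sites.

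The first comparison was cKO against control in the SEZ, the tissue with the dividing progenitors. Of 46 members, 44 had a lower mean in cKO than in control, and the median difference was -0.18, against 0.004 over all 19938 genes, of which 48% were lower. No member passed an adjusted p of 0.05 in limma, as was so for all genes (0 called, 0% of genes). At an unadjusted p under 0.05, 22 of 46 members (47.8%) were lower and none was higher, while 1.01% of all genes were lower at that level. All 3 cKO arrays lay below all 5 control arrays, called groups apart below, for 15 of 46 members (32.6%), against 1.05% of all genes. Since the list was chosen with earlier results known, these shares describe the members and do not test them against all genes. In bulk tissue, fewer dividing cells and less RNA per dividing cell cannot be told apart.

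The mean over the 46 members was 6.90 to 7.02 in the SEZ control arrays and 6.71 to 6.78 in the SEZ cKO arrays. The groups of arrays did not overlap in this mean. It was 6.953 ± 0.047 (SD) over the 5 controls and 6.738 ± 0.038 over the 3 knockouts. For each of the 46 members the highest SEZ array was a control. With 5 controls against 3 knockouts, group size alone makes a control the more likely highest array. The lowest SEZ array was a cKO array for 38 members, namely replicate 1 for 20, replicate 3 for 15 and replicate 2 for 3. SEZ cKO replicate 2 thus lay nearest to the controls, and without it 24 members had no overlap between the groups. Groups of fewer arrays are more easily apart, and the share of all genes without that array was not computed. Nor were the shares of all genes with a control highest or a cKO array lowest.

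**Figure D1:**
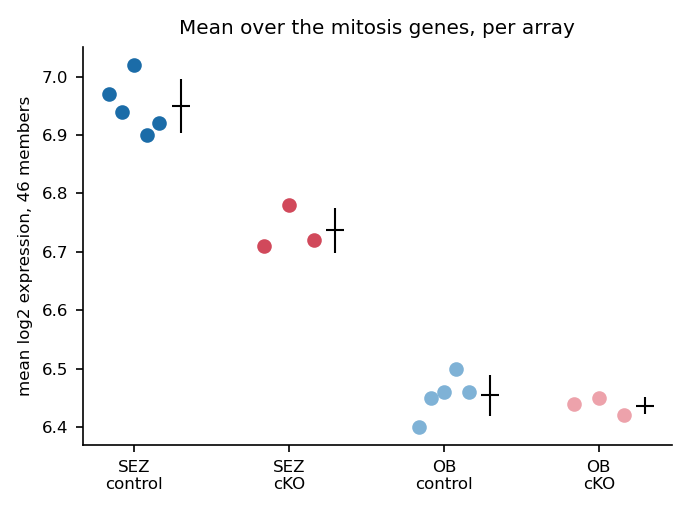
Each point is 1 array and shows the mean log2 expression over the 46 mitosis genes, by tissue and genotype; black marks are the group mean and SD. The 3 SEZ cKO arrays lie between 6.71 and 6.78, below all 5 SEZ controls, and the OB groups lie between 6.40 and 6.50.

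Among the genes for entry into mitosis, 5 of 6 were lower in SEZ cKO. Ccna2 encodes cyclin A2, which drives S phase and the entry into mitosis with its kinases. Ccna2 stood at 8.62, 8.58, 8.86, 8.49 and 8.63 in the SEZ controls and at 7.90, 8.07 and 8.18 in SEZ cKO. Every knockout array was clearly below the lowest control, and the difference of -0.59 ± 0.098 (SE), or 1.5-fold lower, was the largest among the members (adjusted p = 0.268). Cdk1, the kinase that triggers mitosis, stood at 7.54, 7.34, 7.57, 7.35 and 7.54 in controls and at 7.32, 7.24 and 7.11 in cKO. These groups were apart by a narrow margin, with a difference of -0.24 ± 0.081. Differences of the other 4 ranged from -0.16 for Cdca3 to 0.022 for Melk. Ccnb2, which encodes cyclin B2, and Cdc25c, the phosphatase that activates Cdk1, had differences of -0.10 and -0.004.

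The 3 mitotic kinases all had lower means in SEZ cKO. Plk1, polo-like kinase 1, which acts in spindle formation and mitotic exit, stood at 8.30, 7.68, 8.45, 7.76 and 7.70 in controls and at 7.39, 7.48 and 7.74 in cKO. SEZ controls 1 and 3 were high and the other controls were close to the knockouts, so that the groups overlapped (difference -0.44 ± 0.19). Ttk, the checkpoint kinase Mps1, stood at 5.94, 5.94, 5.90, 6.02 and 5.83 against 5.72, 5.88 and 5.87. That difference of -0.10 became -0.051 without SEZ cKO replicate 1. Aurka, which encodes Aurora A at the spindle poles, had a difference of -0.076 ± 0.087, within its error.

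The spindle checkpoint holds anaphase until every chromosome is attached, and its 3 members were also lower on average. For Bub1, a checkpoint kinase, the SEZ controls read 6.20, 6.57, 6.57, 6.61 and 6.59 and the knockouts 6.49, 6.31 and 5.97. Control replicate 1 was far below the other controls and cKO replicate 3 lowest of all. The difference of -0.26 ± 0.12 was -0.11 without that cKO array. Bub1b, which encodes the checkpoint protein BubR1, read 7.03, 7.06, 7.03, 6.88 and 7.09 in controls and 6.68, 6.90 and 6.78 in cKO. Its standard error was wide (-0.23 ± 0.29), because the error is shared over all groups and Bub1b spread from 6.33 to 7.80 among OB controls. Mad2l1, encoding the checkpoint protein Mad2, had a difference of -0.16 ± 0.11.

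Of the 4 genes of the chromosomal passenger complex, which corrects wrong attachments and directs cytokinesis, all had lower means in SEZ cKO and none was fully apart. Aurkb, its kinase Aurora B, read 8.62, 8.35, 8.62, 8.06 and 8.24 in controls and 8.01, 8.27 and 8.10 in cKO (difference -0.25 ± 0.12). Cdca8, encoding borealin, read 6.60, 6.58, 6.62, 6.24 and 6.59 against 6.35, 6.41 and 6.23. Here 4 controls lay together above the knockouts and control replicate 4 lay among them (-0.20 ± 0.083). Incenp, the scaffold, had a difference of -0.17, and Birc5, encoding survivin, had -0.022.

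The kinetochore links the chromosome to the spindle. Nuf2, a subunit of the Ndc80 complex, read 6.27, 6.68, 6.59, 6.67 and 6.59 in SEZ controls and 6.22, 6.56 and 6.18 in cKO. Its difference of -0.24 ± 0.10 was -0.36 without SEZ cKO replicate 2, the knockout closest to the controls. Cenpa, the histone variant of the centromere, read 7.94, 7.74, 7.59, 7.70 and 7.63 against 7.41, 7.75 and 7.47. With those overlapping values its difference of -0.18 ranged from -0.28 to -0.11 when SEZ cKO replicate 2 or replicate 1 was left out. Cenpf and Cenpe, 2 large outer kinetochore proteins, had differences of -0.18 and -0.17, and for both genes the groups were apart. Ndc80 itself had a difference of 0.061 ± 0.11, one of only 2 members above 0.

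Kinesins are motor proteins that move along or depolymerise microtubules, and 8 of 8 had lower means in SEZ cKO. Kif11, also called Eg5, pushes the spindle poles apart. Kif11 read 7.80, 8.18, 8.10, 8.19 and 8.13 in controls and 7.71, 7.57 and 7.42 in cKO. The groups were apart even though control replicate 1 was low, with a difference of -0.52 ± 0.11 (1.43-fold lower, adjusted p = 0.758). Kif23, the motor of the central spindle, read 7.21, 7.35, 7.50, 7.32 and 7.18 against 6.90, 7.02 and 7.06, and was also apart (-0.32 ± 0.078). Kif20a, a kinesin of cytokinesis, was the third kinesin with groups apart (-0.23 ± 0.081). The other 5 differences ran from -0.16 for Kif2c to -0.057 for Kif15, 1 of which, that of Kif20b, had an unadjusted p under 0.05.

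Genes of spindle assembly were the role in which all members, 4 of 4, were lower at an unadjusted p under 0.05. Nusap1, which bundles spindle microtubules around the chromosomes, read 6.92, 6.84, 6.89, 6.58 and 6.53 in controls and 6.22, 6.35 and 6.31 in cKO. The controls spread widely, and the knockouts lay close together below all of them (-0.46 ± 0.10). Hmmr, a microtubule-binding spindle protein, read 4.86, 4.93, 5.17, 5.11 and 5.10 against 4.54, 4.86 and 4.84. That difference (-0.28 ± 0.087) was -0.18 without SEZ cKO replicate 1, the lowest array. Tpx2, which targets Aurora A to the spindle, and Aspm, a spindle pole protein needed for normal brain size, both had differences of -0.26 and groups that were apart.

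The 3 cytokinesis genes had lower means as well. Prc1, which cross-links the antiparallel microtubules of the midzone, read 6.37, 5.99, 6.31, 5.85 and 5.88 in SEZ controls and 5.57, 5.67 and 5.81 in cKO. As for Plk1, controls 1 and 3 were the high ones, but here even the lowest control was above the knockouts (-0.40 ± 0.11). Racgap1, a subunit of centralspindlin, read 8.05, 8.26, 8.39, 8.23 and 8.19 against 8.06, 7.88 and 8.02. Its difference was -0.24 ± 0.079, with 1 knockout level with the lowest control. Ect2, the exchange factor that starts the contractile ring, had -0.21 ± 0.10.

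Cohesion and anaphase genes control the release of sister chromatids, and 1 of the 4 stood out. Sgo2a encodes shugoshin 2, which protects centromeric cohesin. Sgo2a read 7.12, 7.37, 7.24, 7.42 and 7.20 in controls and 6.88, 6.91 and 6.54 in cKO. All knockouts were below all controls, with replicate 3 lowest, and the difference was -0.49 ± 0.091 (adjusted p = 0.395). Cdca5, encoding sororin, read 6.55, 6.03, 6.22, 6.12 and 6.09 against 5.95, 6.10 and 5.99. There control replicate 1 was high, and the difference of -0.18 was -0.097 without it. Cdc20, which activates the anaphase-promoting complex, had -0.098, and Espl1, encoding separase, had -0.051.

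Condensin and other chromosome proteins gave 3 further members with the groups apart. Top2a, topoisomerase II alpha, which untangles sister DNA, read 7.79, 7.67, 7.72, 7.55 and 7.85 in SEZ controls and 7.02, 7.40 and 7.23 in cKO. That is a difference of -0.50 ± 0.11, or 1.41-fold lower (adjusted p = 0.758). Its second, dim probe set went the other way, at 3.93 ± 0.08 (SD) in the 5 SEZ controls and 4.16 ± 0.08 in the 3 knockouts, and with the mean of both probe sets the difference was -0.13.

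Mki67 encodes Ki-67, the protein used to mark cycling cells and a coat of mitotic chromosomes. Mki67 read 7.80, 7.96, 7.90, 8.05 and 8.05 in SEZ controls and 7.59, 7.58 and 7.22 in cKO. Again no knockout reached the lowest control (-0.49 ± 0.10, adjusted p = 0.758). Smc4, a core subunit of condensin, read 7.42, 7.60, 7.65, 7.66 and 7.54 against 7.19, 7.23 and 7.20 (-0.37 ± 0.088). The other condensin subunits had smaller differences, of -0.16 for Smc2, -0.093 for Ncapg and -0.012 for Ncapd2.

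**Figure D2:**
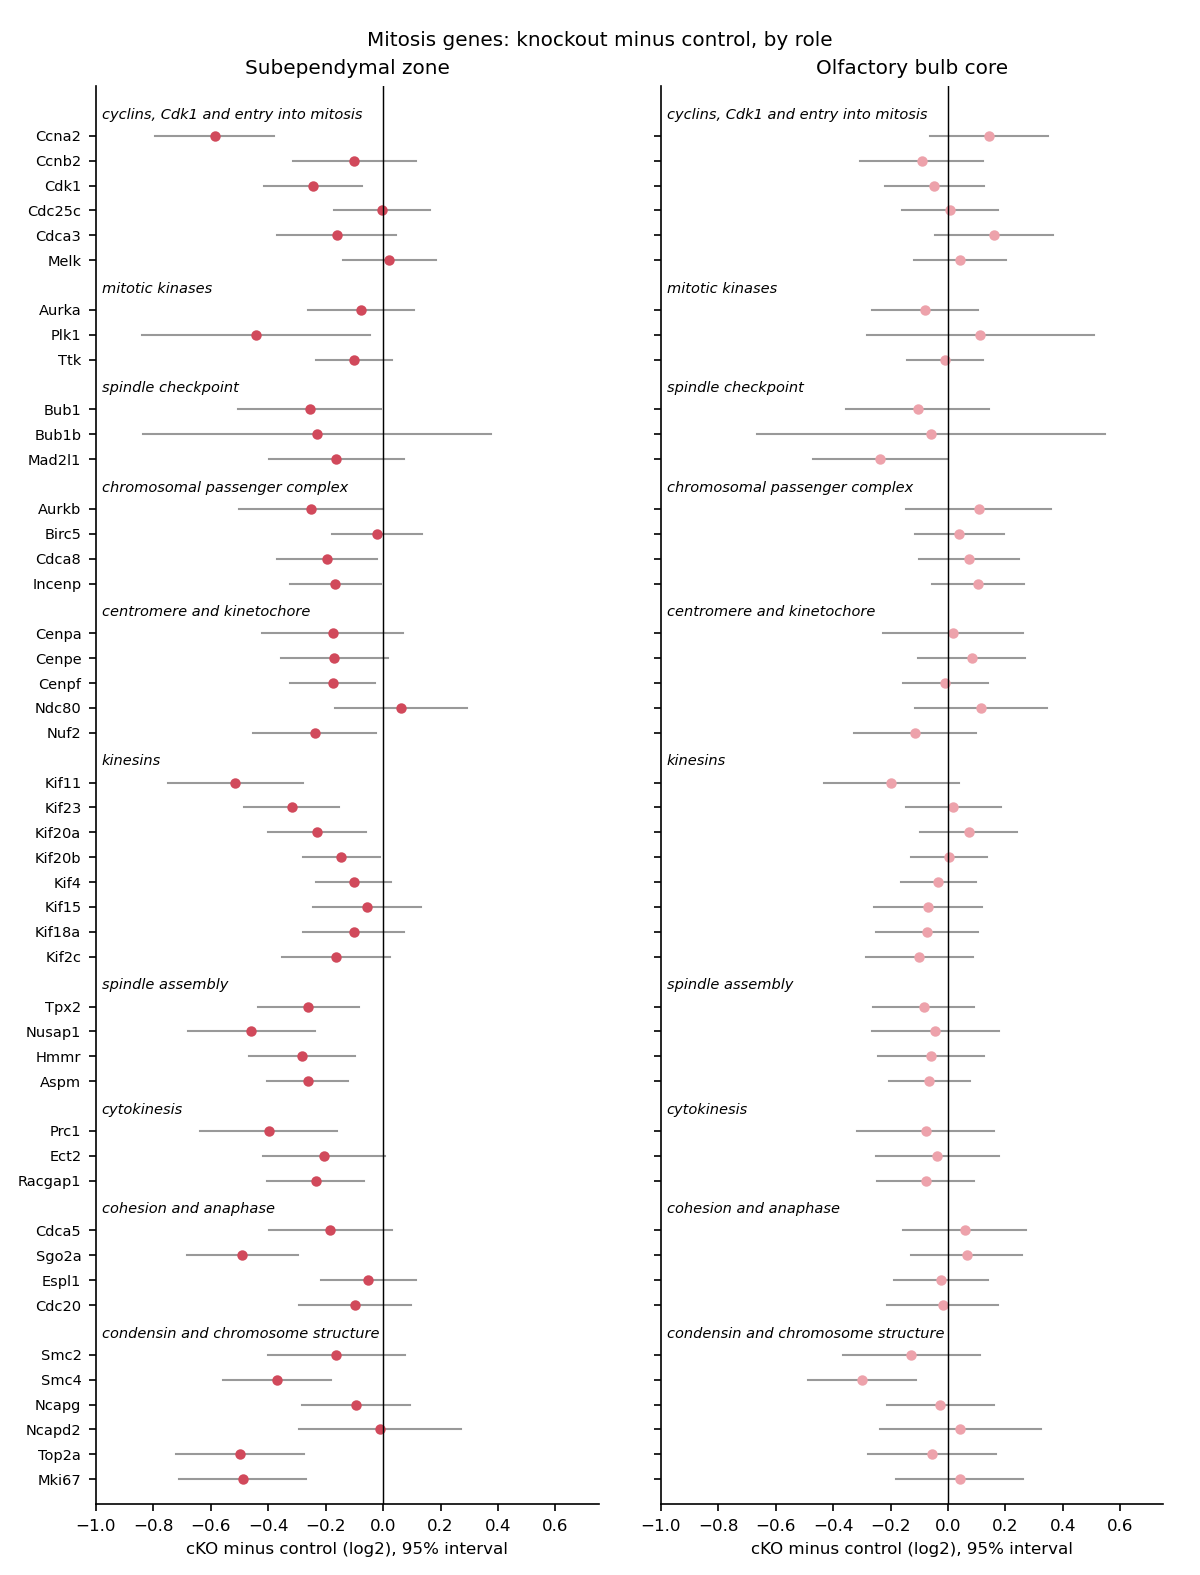
Points show cKO minus control (log2) for the 46 mitosis genes, grouped by role, in SEZ (left) and OB (right); bars are unadjusted 95% intervals from the fit. In SEZ 44 of 46 points lie below 0, while in OB 27 do.

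The second comparison was cKO against control in the OB, where 27 of 46 members were lower in cKO, with a median of -0.025; over all genes 52.1% were lower. No member was called, while 9 of all genes were (0.0451%). At an unadjusted p under 0.05, 2 members were lower, Smc4 and Mad2l1, which is 4.35% of members against 2.64% of all genes. For none of the 46 members were the OB knockouts all below the controls, against 1.57% of all genes. With the replicate block, a term for the replicate number added to the fit of both tissues, 1 member was lower at that level. The labels do not say what a replicate number shares.

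Smc4 was lower in OB cKO, as it was in SEZ cKO. It read 7.74, 7.48, 7.59, 7.69 and 7.78 in OB controls and 7.48, 7.44 and 7.14 in OB cKO. Replicate 3 was far the lowest, and the difference of -0.30 ± 0.088 (unadjusted p = 0.00363) was -0.20 without it. Mad2l1 read 8.77, 8.70, 8.72, 8.70 and 8.81 in controls and 8.79, 8.60 and 8.12 in cKO. Its difference of -0.24 ± 0.11 rested on the same array and was -0.046 when OB cKO replicate 3 was left out. Kif11 read 6.59, 6.54, 6.49, 6.53 and 6.64 against 6.21, 6.67 and 6.20, so that 1 knockout lay above all controls (-0.20 ± 0.11). Without that array, OB cKO replicate 2, the difference was -0.35 (adjusted p = 0.316), and over all arrays left out in turn it ranged from -0.35 to -0.12. Ccna2 read 7.14, 7.11, 7.28, 6.94 and 7.13 in OB controls and 7.38, 7.09 and 7.32 in OB cKO, a difference of 0.14 ± 0.098, on the other side of 0 from that in SEZ.

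**Figure D3:**
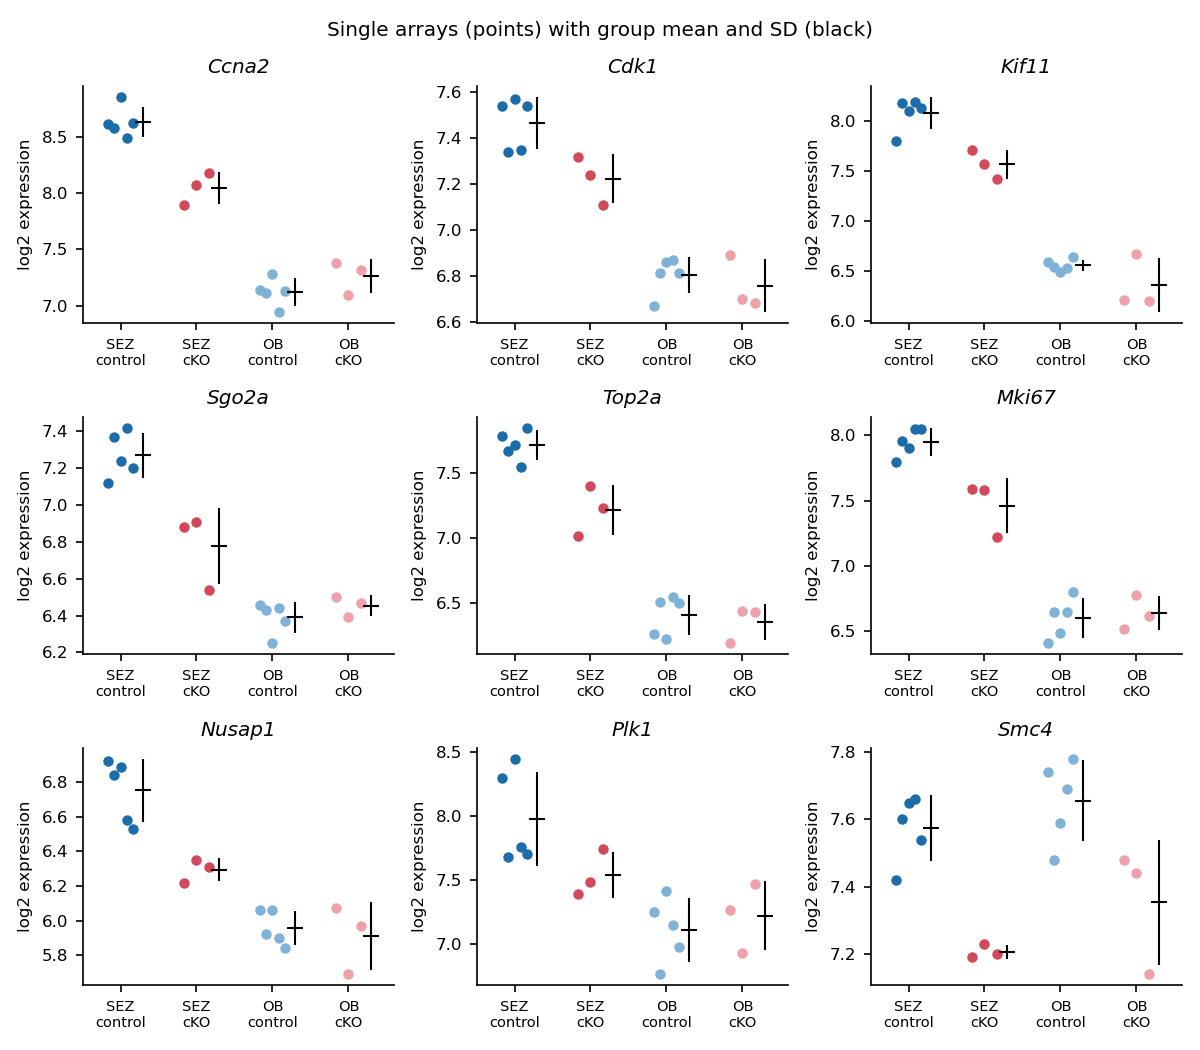
Log2 expression of 9 mitosis genes in each of the 16 arrays (points), with the group mean and SD in black; each panel has its own axis, which does not start at 0. For Ccna2, Kif11, Sgo2a, Top2a, Mki67 and Nusap1 the SEZ knockouts lie between the SEZ controls and both OB groups.

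The difference between the effects in the tissues was tested directly, as the SEZ effect minus the OB effect. It was below 0 for 43 of 46 members, against 45% of all genes, with a median of -0.17. No member passed the adjusted threshold, and 1 of all genes did (0.00502%). At an unadjusted p under 0.05 there were 11 members (23.9%) with a more negative effect in SEZ, against 0.512% of all genes. Ccna2 had the largest difference, -0.73 ± 0.14 (adjusted p = 0.46), followed by Sgo2a with -0.56 ± 0.13. In OB, Sgo2a read 6.46, 6.43, 6.25, 6.44 and 6.37 in controls and 6.50, 6.39 and 6.47 in cKO, which overlapped. Plk1 also had -0.56, with a wider 95% interval of -1.12 to 0.006. Its OB arrays read 7.25, 6.76, 7.41, 7.15 and 6.97 in controls and 7.26, 6.93 and 7.47 in cKO, so that here too the groups overlapped. Mki67, Top2a and Nusap1 had -0.53, -0.44 and -0.42. The tissue effects are therefore not shown to differ for any 1 member after adjustment. The members were also dimmer in OB, with array means of 6.40 to 6.50 in controls against 6.90 to 7.02 in SEZ controls. Low signals are compressed, so effects in OB may be understated, which was not tested.

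OB and SEZ were also compared with each other in mice of the same genotype group. In controls, 38 of 46 members were lower in OB at an adjusted p under 0.05, against 14.9% of all genes, and 0 were higher, against 12.6%. The median difference was -0.42. In cKO, 24 members were lower, against 13.1% of all genes, and 1 was higher, against 10% of all genes. The median there was -0.31.

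Kif11 and Ccna2 had the largest tissue differences in controls, each -1.52 (SE 0.096 for Kif11 and 0.085 for Ccna2). OB control arrays read 6.49 to 6.64 for Kif11 and 6.94 to 7.28 for Ccna2, far below every SEZ control. Mki67 read 6.41, 6.65, 6.49, 6.65 and 6.80 in OB controls and 6.52, 6.78 and 6.62 in OB cKO, all below every SEZ array. The difference was -1.35 for Mki67, -1.31 for Top2a and -1.02 for Bub1. It was -0.88 for both Racgap1 and Sgo2a and -0.87 for Plk1. The smallest differences that still passed were those of Birc5 and Cdc25c, each -0.21. All 6 genes of entry into mitosis, all 3 mitotic kinases, all 4 spindle assembly genes and all 3 cytokinesis genes passed as lower in OB, and 7 of 8 kinesins did.

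The 8 members that did not pass in controls were Mad2l1, Espl1, Kif20b, Ncapd2, Ndc80, Smc4, Incenp and Bub1b. Of these, Smc4, Incenp and Bub1b had higher means in OB, by 0.082, 0.13 and 0.29. In cKO, Incenp passed as higher in OB (0.40 ± 0.084, adjusted p = 0.00181). Incenp read 7.58, 7.64, 7.74, 7.74 and 7.78 in OB controls and 7.73, 7.76 and 7.91 in OB cKO. In SEZ it read 7.62, 7.56, 7.39, 7.63 and 7.62 in controls and 7.32, 7.48 and 7.39 in cKO, so the knockout groups of the tissues did not overlap.

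The members' tissue difference was smaller in cKO for most of the genes with a large difference. For Ccna2 it was -1.52 in controls and -0.79 in cKO, for Mki67 -1.35 and -0.82, for Top2a -1.31 and -0.87, and for Kif11 -1.52 and -1.21. The change between those values is the same quantity as the difference of effects above and has the same test. The count in cKO rests on fewer arrays. It was 15 without SEZ cKO replicate 2, lower and higher members together, against 25 with it. Calls over all genes were 3841 without that array, against 4614 with it.

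**Figure D4:**
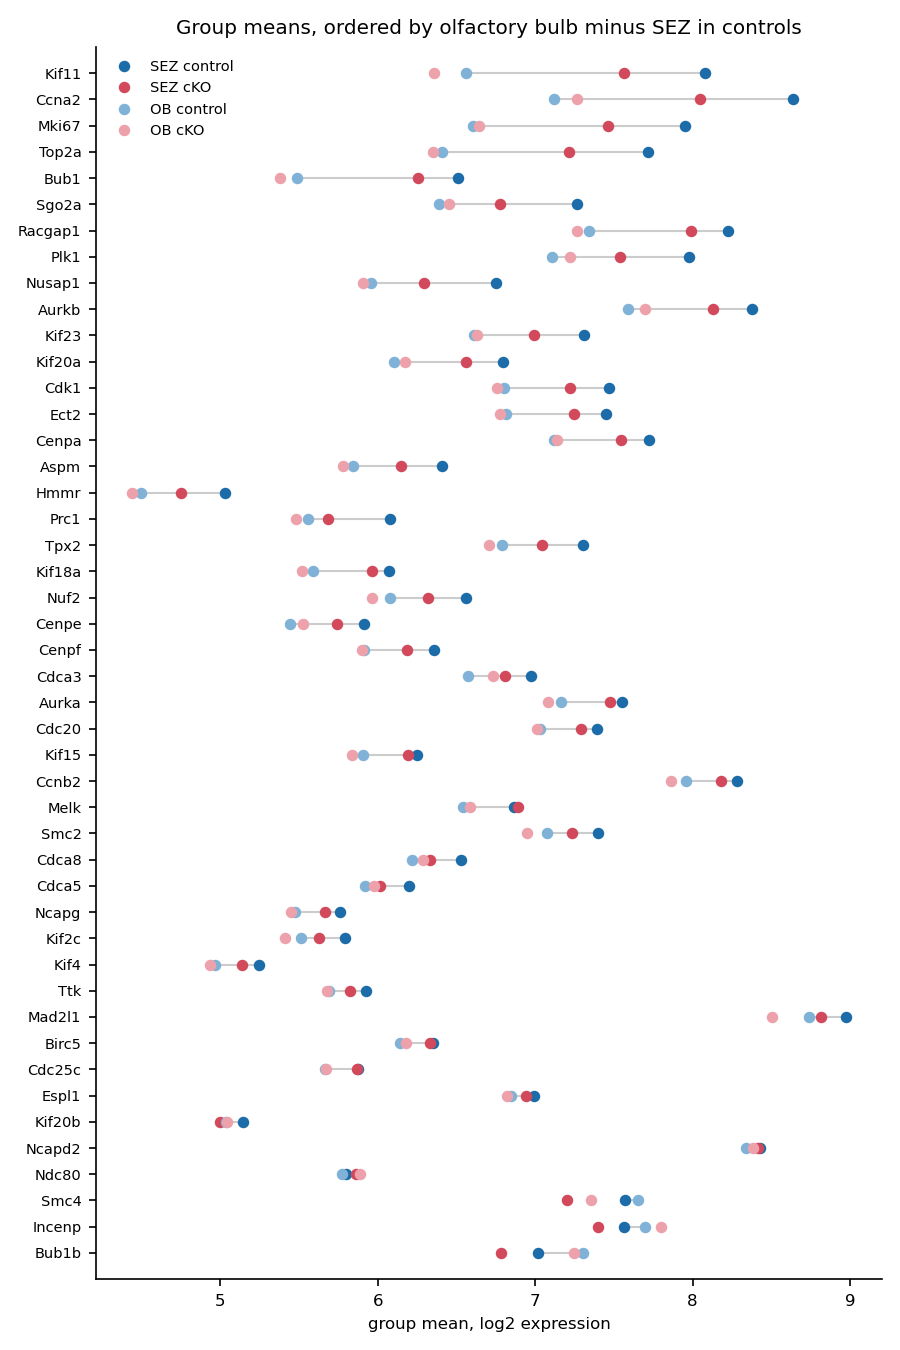
Group means (log2 expression) of the 46 mitosis genes in the 4 groups, ordered by OB minus SEZ in controls, with the grey line joining the control means; levels of different genes are not comparable. The OB means lie left of the SEZ means for most genes, and Smc4, Incenp and Bub1b at the bottom are the exceptions with higher OB control means.

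Other genes of the same process, from a list of 87 of which 83 were measured, were read beside the members. In SEZ cKO 62 of 83 (74.7%) were lower, with a median of -0.069, against 48% of all genes. At an unadjusted p under 0.05, 12 (14.5%) were lower, against 1.01% of all genes, and none was called. Knl1, the kinetochore scaffold that recruits Bub1, had -0.38, and Cks2, a subunit of Cdk complexes, had -0.37. Pbk, a mitotic kinase, and Kntc1, a kinetochore protein, had -0.31 and -0.17. In OB cKO 48 of 83 (57.8%) were lower (median -0.011), against 52.1% of all genes, and Cks1b had the smallest p there, with -0.27. Between tissues in controls, 33 (39.8%) were called lower in OB, against 14.9% of all genes, and 4 were called higher. The lower ones included Knl1 (-0.80) and Anln, encoding anillin (-1.63). Anln read 9.26, 10.30, 9.33, 9.81 and 10.27 in SEZ controls. There Ermn, a marker of mature oligodendrocytes, read 10.06, 10.94, 9.95, 10.63 and 10.96, with the same arrays high. Which cells gave the Anln signal was not tested.

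Among 23 genes that regulate mitotic transcription (MuvB subunits, B-Myb, FoxM1, NF-Y and E2F factors and their partners), 19 (82.6%) were lower in SEZ cKO, against 48% of all genes, with a median of -0.08 and none called. Foxm1, the forkhead factor that activates G2 and M phase genes, was the single gene of the list (4.35%) at an unadjusted p under 0.05, against 1.01% of all genes. Foxm1 read 7.70, 7.76, 7.88, 7.66 and 7.60 in SEZ controls and 7.38, 7.56 and 7.37 in cKO. All its knockouts were below all controls (-0.29), and in controls it passed as lower in OB (-0.78). In contrast Rb1, encoding the retinoblastoma protein that holds cells out of the cycle, passed as higher in OB controls (1.00), and Nfyc, an NF-Y subunit, did too (0.70).

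DNA replication genes are used earlier in the cycle. In SEZ cKO 37 of 44 (84.1%) were lower (median -0.069), 6 of them (13.6%) at an unadjusted p under 0.05, against 48% and 1.01% of all genes. Examples were Rrm2, a ribonucleotide reductase subunit, at -0.41 and the helicase subunits Mcm7, Mcm6 and Mcm5 at -0.31, -0.33 and -0.25. In OB cKO 32 of 44 (72.7%) were lower, with a median of -0.095 and 9 (20.5%) at that level, against 52.1% and 2.64% of all genes. Pcna, the sliding clamp, had the smallest p there, with -0.44. None was called in either tissue. For the mitosis genes the OB median was -0.025, and the difference between these lists was not tested.

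**Figure D5:**
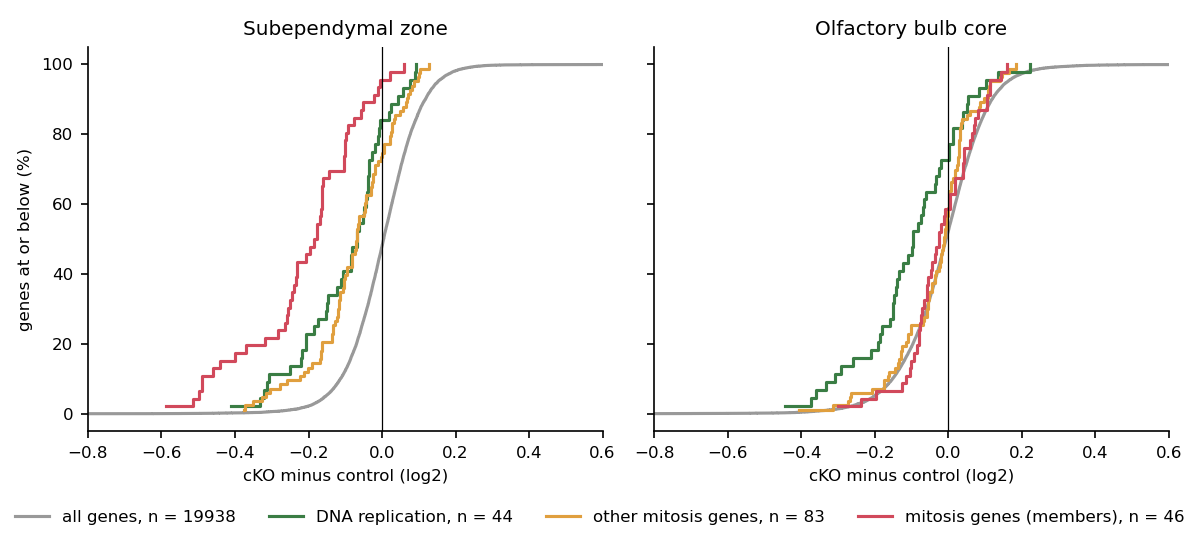
Cumulative share of genes (percent) at or below each cKO minus control difference (log2), for the 46 mitosis genes, 83 other mitosis genes, 44 DNA replication genes and all 19938 genes. In SEZ the line of the mitosis genes lies furthest left (median -0.18), and in OB it runs near that of all genes while DNA replication genes lie to its left (median -0.095).

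Markers of cell types that the tissue holds were read beside these results. The mean of 12 neuroblast markers was 9.74 to 10 in SEZ controls and 9.60 to 9.62 in SEZ cKO. There 12 of 12 were lower and none was called, against 48% of all genes lower and 0% called. In OB the mean was 10.68 to 10.98 in controls against 10.16 to 10.38 in cKO. There 12 of 12 were lower and 3 called, against 52.1% of all genes lower and 0.0451% called. Neuroblast markers were thus lower beside the mitosis genes in SEZ, and lower in OB too, where the mitosis genes' array means overlapped. The mean of 7 markers of transit amplifying progenitors, among them Rrm2 of the replication list, was 8.49 to 8.70 in SEZ controls and 8.42 to 8.54 in SEZ cKO. Means of markers of astrocytes and stem cells, oligodendrocyte progenitors, mature oligodendrocytes and microglia overlapped between the SEZ groups. That of 8 markers of cortical excitatory neurons did not, at 8.06 to 9.03 in SEZ controls and 7.97 to 8.03 in SEZ cKO. The part of these cell types in the lower mitosis genes was not tested. The tissues themselves matched their labels, since the mean of 8 markers of olfactory bulb interneurons was 11.04 to 11.28 in OB arrays and 8.09 to 8.47 in SEZ arrays. Markers of other cells differed between the tissues beside the mitosis genes. In controls, 7 of 7 markers of mature oligodendrocytes (median -1.13), 7 of 8 of ependymal cells (median -0.77), 7 of 7 of striatal projection neurons (median -3.91) and 5 of 7 of transit amplifying progenitors (median -0.32) were called lower in OB, while 10 of 12 neuroblast markers were called higher (median 1.08). Over all genes 14.9% were called lower and 12.6% higher. Called the other way were 1 ependymal and 1 transit amplifying marker, higher in OB, and 1 neuroblast marker, lower in OB. The part of these cells in the tissue difference of the mitosis genes was not tested.

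Checks of the libraries bear on these values in 3 ways. Smarca4 was level between genotypes, at 10.62 to 10.77 in SEZ cKO and 10.66 to 10.78 in SEZ controls. Whether its gene-level probe set covers the floxed part of the gene was not examined, and the tissue held cells that kept Brg1. These values therefore do not check the deletion. Slc1a3 was low in cKO replicate 3 of both tissues (8.16 in SEZ and 8.85 in OB), against 11.16 to 12.27 in the other arrays. Without both of these arrays, the member median in SEZ was -0.17 and 16 members were lower at an unadjusted p under 0.05. The cortical markers were highest in SEZ controls 2 and 4 (Slc17a7 at 10.58 and 11.06, against 7.84 to 8.98 in the other SEZ arrays). Without these controls the median was -0.20 with 22 members at that level. The members themselves were dim, since 21 of 46 had a mean level below the lower quartile of all genes (6.54) and 2, Mad2l1 and Ncapd2, were above the median gene (8.11).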

How the data were processed

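RNA from 16 samples was hybridised to 1-colour Affymetrix arrays after column extraction with DNase treatment, per the labels' protocols. The authors deposited log2 values, 1 for each probe set and array, which they made with RMA in Affymetrix Expression Console 1.2, per the submitters' processing notes. Quantile normalisation in RMA gives all arrays nearly 1 distribution (array medians 7.45 to 7.65), so a shift of all genes together could not be seen, and low signals are compressed, so differences of dim genes may be understated.

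Of 35556 probe sets, 21789 had 1 symbol in the platform annotation, and 1621 with several and 12146 with none were left out. Symbols were looked up by Entrez identifier in the RefSeq table of GRCm38.p6 (21698 found, 0 changed). The brightest probe set stood for a gene. limma 3.58.1 in R 4.3.3 fitted all 16 arrays in 4 groups with no covariate, 12 residual and 4.34 prior degrees of freedom, two-sided, with Benjamini-Hochberg adjustment over 19938 genes and a threshold of 0.05. The script was tested on simulated data. P-values take the labels' biological replicates as independent, and the number of arrays limits precision. No 2 arrays were duplicates (highest correlation 0.9975).

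The members and gene lists were chosen with earlier results of these data known. SEZ array values are printed for the 2 members of each role with the largest SEZ difference. OB array values, or their range, are printed for the 3 with the largest OB difference, difference of effects or tissue difference. SEZ values of Smc4, all values of Incenp and SEZ values of Foxm1 were added where a result turned on them. From the other lists, up to 4 genes with the smallest p were eligible. Same-numbered arrays deviated together in OB (correlations of cKO and control deviations 0.43, 0.33 and 0.32) and between the tissues in controls (0.17 to 0.57). Between the tissues in cKO they did not all do so (-0.06, 0.25 and 0.39). The replicate block rests on these correlations, since the labels do not say what a number shares. Control number 5 cannot be the same mouse in both tissues, since the labelled genotypes differ, yet its correlation was 0.47. The correlations thus do not show shared mice, and unlike-numbered arrays were not compared. Slc1a3 was low in number 3 of both cKO groups. Pttg1 read 7.65, 7.36, 8.75, 9.35 and 9.21 in SEZ controls and 7.08, 7.06, 8.36, 9.00 and 8.85 in OB controls. In cKO it read 8.73, 7.61 and 8.97 in SEZ and 6.98, 7.50 and 8.50 in OB. Whether any other number stands for 1 mouse in both tissues was not tested, and the main fit takes the tissues as independent. Alternatives were other normalisation and centring, a filter on low values, the mean of probe sets, 1 tissue alone, array weights, another variance prior, the replicate block, a cortical marker covariate and arrays left out. Promoter sequences come from RefSeq on GRCm38.p6, and 3 members had more than 1 window.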

Additional observations from a re-analysis of the deposited data

Results flagged for a closer look

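For each of the 46 members and for their mean, the 5 control arrays of each tissue were checked for 1 array far from the others. Of these 94 control groups, 7 had one, 4 in SEZ and 3 in OB, where chance gives about 1 in 20 groups. Bub1 was low in SEZ control replicate 1 (6.20, others 6.57 to 6.61). Nuf2 was low in the same array (6.27, others 6.59 to 6.68), and so was Kif11 (7.80, others 8.10 to 8.19). Cdca8 was low in SEZ control replicate 4 (6.24, others 6.58 to 6.62). In OB, control replicate 1 was low for Tpx2 (6.53, others 6.80 to 6.89) and for Espl1 (6.74, others 6.86 to 6.89), and control replicate 4 was low for Kif20b (4.95, others 5.04 to 5.06).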

How the results depend on the processing

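No member was called between genotypes in either tissue, and none for the difference of effects, under every alternative run except 1. With the replicate block 1 member was called in SEZ, Ccna2 (difference -0.64, adjusted p = 0.0303), where numbers 1 to 3 did not pair (correlations -0.41, 0.13 and 0.61). Over all 19938 genes, the replicate block gave 2 calls in SEZ, against 0 in the main fit. The smallest adjusted p of Ccna2 under any other setting was 0.171, with array weights. With the replicate block the tissue difference in controls gave 39 members in place of 38, while calls over all genes rose from 5491 to 6526. A filter for genes above the median gene left 2 members, Mad2l1 and Ncapd2, by its own construction: 0 members then had an unadjusted p under 0.05 in SEZ, in OB or for the difference of effects, the medians were -0.088 in SEZ, -0.097 in OB and 0.009 for the difference of effects, and OB minus SEZ gave 0 calls in controls (median -0.16) and 0 in cKO (median -0.17). The OB count of 2 members at an unadjusted p under 0.05 was 1 with cyclic loess, median centring, 1 tissue alone, another variance prior, the replicate block or without SEZ controls 2 and 4, and 0 without both cKO arrays numbered 3, an alternative chosen after seeing the data. The cKO tissue count of 25 was 11 (median -0.26) with the cortical marker covariate and 15 without both cKO arrays numbered 3. Calls over all genes fell too, from 4614 to 3416 and 3445, and the cause was not tested. With 1 array left out at a time, the ranges were 15 to 24 members in SEZ and 1 to 3 in OB at an unadjusted p under 0.05, 15 to 24 members with SEZ groups apart, a SEZ median of -0.22 to -0.17, and in cKO between tissues 15 to 27 calls and a median of -0.32 to -0.27. The share of all genes with SEZ groups apart was not computed with an array left out. Between tissues in cKO, calls over all genes ranged from 3605 to 4855 with 1 array left out. Arrays carried no detection calls, so how far the dim members stood above background is not known.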
